A study of Mus musculus with 28 samples.

Results

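Adipsin (complement factor D, gene Cfd) and 3 other products for which fat cells are best known, adiponectin (Adipoq), the fatty acid binding protein Fabp4 and resistin (Retn), were followed through bulk RNA sequencing of mouse liver and liver tumors. These 4 genes, of 22187 in the deposited table, were chosen by name, and Cfd was chosen because its level moved with diet and tissue in these same libraries. Its levels are therefore given as a description, and none of its own changes is offered as a test. The question was whether Cfd moved together with Adipoq and Fabp4, as RNA from admixed fat tissue would, or apart from them.

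The mice were C57BL/6, carried a floxed Il17ra gene (the interleukin-17 receptor A) and had all received the liver carcinogen diethylnitrosamine (DEN) at 25 mg/kg, injected into the abdomen at 2 weeks of age. Mice called dHEP also carried Cre recombinase driven by the albumin promoter, which deletes the floxed gene in hepatocytes and leaves it in other liver cells, and mice called FF carried the floxed gene without Cre. They were then kept for 18 weeks on an alcohol diet, or on chow. The sample labels call the alcohol diet HFD_alcohol and the design text describes liquid feeding with ethanol. Tumors and non-tumor liver gave 14 libraries each, with n = 4 in each of the 4 alcohol groups and n = 3 in each of the 4 chow groups. Animal numbers named the replicates, and both tissues came from the same animals in all groups except FF on chow. The alcohol groups carried animal numbers from FF-503 to FF-595 and the chow groups from dHEP-155 to FF-169, so diet cannot be told apart from that number series, and the labels gave no sex.

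Adipsin is the serine protease that cleaves factor B bound to C3b and so drives the alternative pathway of complement. Fat cells are its main source in mice, and its transcript is one of the most abundant of white fat. Adiponectin and resistin are hormones secreted by mouse fat cells, Adipoq being a strict marker of the mature fat cell, while Fabp4 carries fatty acids inside fat cells and is also made by capillary endothelium and macrophages. Hepatocytes that store fat take up part of the fat cell programme under the nuclear receptor PPARgamma, including lipid droplet proteins of the perilipin and CIDE families.

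The 250 bases before the annotated start of Cfd and of Adipoq are shown because these 2 genes, both fat cell products, behaved differently in the libraries described next. Sequences are from RefSeq on GRCm38.p6, on the plus strand, in the 5′ to 3′ direction, and capitals mark matches to the CCAAT motif on either strand.
Cfd, chr10:79890603-79890852: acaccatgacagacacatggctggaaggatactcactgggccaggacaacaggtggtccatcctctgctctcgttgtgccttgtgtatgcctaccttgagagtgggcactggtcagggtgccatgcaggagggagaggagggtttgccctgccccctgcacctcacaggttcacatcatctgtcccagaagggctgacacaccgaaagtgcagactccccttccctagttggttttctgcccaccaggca
Adipoq, chr16:23146286-23146535: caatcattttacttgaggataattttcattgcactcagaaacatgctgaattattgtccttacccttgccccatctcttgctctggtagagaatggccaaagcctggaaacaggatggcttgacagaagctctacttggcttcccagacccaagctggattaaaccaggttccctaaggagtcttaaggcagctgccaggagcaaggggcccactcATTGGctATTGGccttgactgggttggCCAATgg
The motif CCAAT (reverse ATTGG) occurred 3 times in the Adipoq window, at 34 to 30, 27 to 23 and 7 to 3 bases before the start, and in 33.8% of 32851 promoter windows of the same length. Neither AGGTCA (reverse TGACCT, in 14% of windows) nor ATAAAA (reverse TTTTAT, in 17.0%) was present in the Cfd, Adipoq or Retn windows, and CCAAT was absent from those of Cfd and Retn. These matches describe letters in 1 window and are not binding sites. The genes themselves lie at chr10:79890853-79892655 (Cfd, ENSMUSG00000061780, plus strand), chr16:23146536-23158028 (Adipoq, ENSMUSG00000022878, plus strand), chr3:10204088-10208576 (Fabp4, ENSMUSG00000062515, minus strand) and chr8:3655770-3660110 (Retn, ENSMUSG00000012705, plus strand) on GRCm38, and 0 annotated genes overlap any of them.

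Values are counts per 1000000 (M) reads (CPM). The most frequent value above 0 in each library was taken as 1 read, worth 0.0561 to 0.104 CPM, which gave an estimated 9.57 to 17.82 M reads per library. The targeted gene Il17ra stood at 14.7 to 31.0 CPM in FF non-tumor liver and at 8.34 to 13.0 CPM in dHEP non-tumor liver with no overlap, whereas the tumors of the 2 genotypes overlapped. Albumin was between 24250 and 144500 CPM in all 28 libraries. A few libraries stood apart. The non-tumor library of mouse FF-158 on chow held Mup20, a male-biased urinary protein gene, at 157.4 CPM against 3422 to 12680 in the other non-tumor libraries. Tumor FF-168 on chow held Mup20 at 301.7 CPM against 492.1 to 14710 in the other tumors. The non-tumor libraries of FF-523 and FF-581 on alcohol held the fetal and tumor marker Afp at 213 and 159.2 CPM, against 1.41 to 8.82 in the other non-tumor libraries. Tumor dHEP-549 on alcohol held Afp at 5.47 CPM, against 33.4 to 1448 in the other tumors. Gpc3, a second fetal and tumor marker, was at 0.473 CPM in tumor dHEP-549 and 1.66 in tumor dHEP-550, against 16.1 to 482 in the other tumors. The limma estimates of Cfd and Fabp4 that use the FF libraries named here are given with and without them. Tumors dHEP-549 and dHEP-550 were left out only 1 at a time, as every library was. Differences between diet effects are an exception, since they were fitted only with all libraries in place.

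Cfd was abundant in non-tumor liver on the alcohol diet, lower on chow and near its detection limit in tumors. On alcohol its level in FF non-tumor liver was 96.0 CPM in FF-503, 46.3 in FF-523, 85.7 in FF-581 and 20.8 in FF-595. In FF non-tumor liver on chow it was 4.39 CPM in FF-157, 0.0906 in FF-158 and 1.3 in FF-159. The lowest alcohol library thus lay above the highest chow library, and the library of mouse FF-158, which also stood apart in Mup20, rested on 1 Cfd read. Non-tumor liver on alcohol held 48.1 CPM in dHEP-518, 81.2 in dHEP-520, 14.6 in dHEP-549 and 22.3 in dHEP-550, and on chow 10.9 CPM in dHEP-155, 6.44 in dHEP-164 and 8.10 in dHEP-165, again without overlap. The share of all genes whose groups lay apart is not given, so a lack of overlap, for any gene or ratio, only describes the values. Here and below, fewer cells of a type and less RNA per cell cannot be told apart, because whole tissue was sequenced.

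Group means of Cfd in non-tumor liver were 62.2 ± 34.9 CPM (SD, n = 4) in FF on alcohol and 1.93 ± 2.22 (n = 3) in FF on chow, a 32.3-fold difference. On the log2(CPM + 1) scale used for all model estimates, which understates changes of low genes, it was 4.51 ± 0.63 (SE, limma). Of all 12651 genes tested in that comparison, 0.253% were called higher (limma, adjusted p under 0.05 by the Benjamini-Hochberg method), and Cfd was among them. Cfd was picked from these same values, so its calls here and below describe its place among genes and are no test of it. In dHEP mice the means were 41.6 ± 30.1 (n = 4) and 8.47 ± 2.24 (n = 3) CPM, a 4.91-fold difference with a log2 estimate of 1.90 ± 0.63 that was not called (0.19% of all genes called higher). The difference between the diet effects of the genotypes was -2.61 ± 0.89 and was not called; in that interaction 0 of 12651 genes were called by limma and 870 had an unadjusted p under 0.05. Without FF-158 the FF chow mean rose to 2.85 ± 2.18 CPM (n = 2), the FF diet difference was 21.9-fold and its estimate 3.95 ± 0.66, still called. Without FF-523 and FF-581 that estimate was 4.27 ± 0.79 and was not called. It was not called without FF-159 either (4.48).

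Between genotypes no difference of Cfd was called. On chow dHEP non-tumor liver lay above FF non-tumor liver in all libraries, with 4.4-fold between the means and an estimate of 1.96 ± 0.67 that was not called. Without FF-158 this came to 2.98-fold and 1.40 ± 0.70. On alcohol the genotypes overlapped (-0.64 ± 0.58, dHEP minus FF, and -0.40 ± 0.75 without FF-523 and FF-581). No gene was called between genotypes in any of the 4 settings (0% by limma). An unadjusted p under 0.05 was given to 1077 genes in the alcohol and 588 in the chow comparison of non-tumor liver, and to 833 and 378 in tumors.

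In tumors Cfd was detected in every library but at low levels. FF tumors held 1.71, 2.71, 0.331 and 0.200 CPM on alcohol, listed in the same order of animals as the non-tumor livers, and on chow 0.117 CPM in FF-167, 0.168 in FF-168 and 0.302 in FF-169. dHEP tumors held 0.248, 2.08, 0.608 and 0.0665 CPM on alcohol, and those of chow-fed mice 0.179, 0.0584 and 0.0675 CPM, again in the order of their non-tumor livers. The chow tumors rest on 1 to 5 reads each, so their order is within counting error. Against non-tumor liver of the same diet, the log2 estimates were -4.76 ± 0.52 in FF and -4.44 ± 0.52 in dHEP mice on alcohol, the non-tumor means being 50.2-fold and 55.3-fold higher. Leaving out FF-523 and FF-581 from non-tumor liver, the FF estimate was -4.52 ± 0.65, still called. They were -3.08 ± 0.60 in dHEP and -1.0 ± 0.60 in FF mice on chow. Cfd was called in 3 of the 4, where 24.6% (FF alcohol), 20.4% (dHEP alcohol) and 27.9% (dHEP chow) of all 13503 genes were called in either direction. It was lower in each, as were 10.6% (FF alcohol), 7.54% (dHEP alcohol) and 10.7% (dHEP chow) of all genes. In FF on chow, where 30.8% of genes were called and 9.55% called lower, it was not called and the groups overlapped through FF-158; without FF-158 and FF-168 the estimate was -1.55 ± 0.71, also not called. These comparisons share the non-tumor alcohol libraries with the diet comparisons above.

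All 11 animals sampled in both tissues had more Cfd in non-tumor liver than in tumor. The smallest ratio was 17.1, in FF-523, whose non-tumor library also carried high Afp. FF-581, the other mouse with high Afp in non-tumor liver, had a ratio of 259.2. The next smallest was 24.1, in dHEP-549, with Afp at 2.29 CPM in non-tumor liver and at only 5.47 CPM in the tumor. The largest was 334.9, in dHEP-550, whose tumor was also low in Gpc3. Among tumors no diet or genotype difference of Cfd was called. The estimate for alcohol minus chow was 0.75 ± 0.41 in FF and 0.54 ± 0.41 in dHEP tumors, and that for dHEP minus FF was -0.32 ± 0.38 on alcohol and -0.12 ± 0.44 on chow, none called and all overlapping (limma called 0% of genes by diet in FF tumors, with 718 at an unadjusted p under 0.05, and 0.00757% in dHEP tumors). Without FF-168 and FF-158 the FF diet estimate in tumors was 0.73 ± 0.48 and the chow genotype estimate -0.13 ± 0.51. The diet effect in non-tumor liver exceeded that in tumors by 3.76 ± 0.80 in FF and 1.36 ± 0.80 in dHEP mice, neither called. Limma called 0 genes in either interaction, 801 and 867 having an unadjusted p under 0.05.

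**Figure D1:**
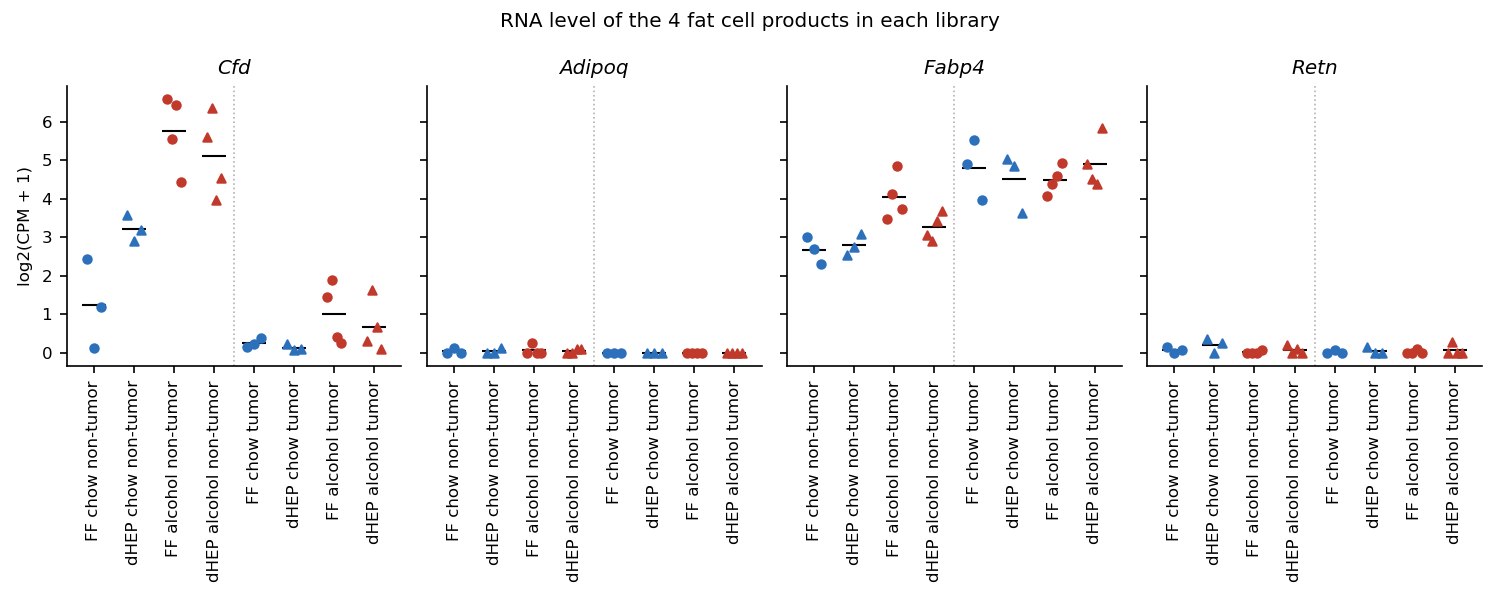
Level of Cfd, Fabp4, Adipoq and Retn in each of the 28 libraries, on the log2(CPM + 1) scale, by genotype, diet and tissue; circles are FF and triangles dHEP mice, red alcohol and blue chow, black lines are group means and the dotted line separates non-tumor liver from tumors. Cfd is highest in non-tumor liver on alcohol (14.6 to 96.0 CPM) and at most 2.71 CPM in tumors, Fabp4 is higher in most tumors than in non-tumor liver, and Adipoq and Retn lie at or near 0.

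Fabp4, the fatty acid carrier of fat cells, endothelium and macrophages, took another course. Its values are listed in the order of animals used for Cfd, by rising number. In non-tumor liver of FF mice it was 10.04, 16.4, 27.9 and 12.4 CPM on alcohol, and 7.10, 5.43 and 3.97 CPM with chow feeding. The groups did not overlap, and the means of 16.7 ± 7.92 (SD, n = 4) and 5.50 ± 1.57 (n = 3) CPM were 3.03-fold apart. The log2 estimate of 1.37 ± 0.29 was not called, although it was called under 4 of the other settings tried. It was 0.93 ± 0.27 without FF-523 and FF-581 and 1.38 ± 0.34 without FF-158, neither called. In dHEP non-tumor liver it was 7.29, 6.47, 9.72 and 11.8 CPM on alcohol, and 4.87, 5.78 and 7.53 CPM with chow feeding, overlapping groups with an estimate of 0.46 ± 0.29. Between genotypes the estimates in non-tumor liver were -0.78 ± 0.27 on alcohol (-0.34 ± 0.25 without FF-523 and FF-581) and 0.13 ± 0.31 on chow (0.14 ± 0.36 without FF-158), none called.

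Tumors held more Fabp4 than non-tumor liver in 3 of the 4 settings by the call used here. FF tumors held 15.9, 19.9, 23.1 and 29.8 CPM on alcohol, and 29.2, 45.4 and 14.6 CPM with chow feeding (FF-167, FF-168 and then FF-169). dHEP tumors held 29.0, 21.8, 20.1 and 56.5 CPM on alcohol, and 31.5, 28.03 and 11.4 CPM with chow feeding. Tumor minus non-tumor liver was 2.13 ± 0.42 in FF on chow (5.40-fold), 1.65 ± 0.36 in dHEP on alcohol (3.62-fold) and 1.70 ± 0.42 in dHEP on chow (3.90-fold), each called, where 21.2%, 12.9% and 17.2% of all genes were called higher. In FF on alcohol it was 0.45 ± 0.36, not called, with 13.9% of genes called higher. Without FF-523 and FF-581 that estimate was 0.90 ± 0.42, also not called, and without FF-158 and FF-168 the FF chow estimate was 1.77 ± 0.50, still called. Fabp4 was higher in the tumor in 10 of the 11 animals with both tissues, the exception being FF-581. Within tumors neither diet (-0.30 ± 0.44 in FF and 0.41 ± 0.44 in dHEP) nor genotype (0.42 ± 0.40 on alcohol and -0.30 ± 0.47 on chow) gave a call. Without FF-168 the FF diet and the chow genotype estimates were 0.06 ± 0.46 and 0.07 ± 0.49.

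**Figure D2:**
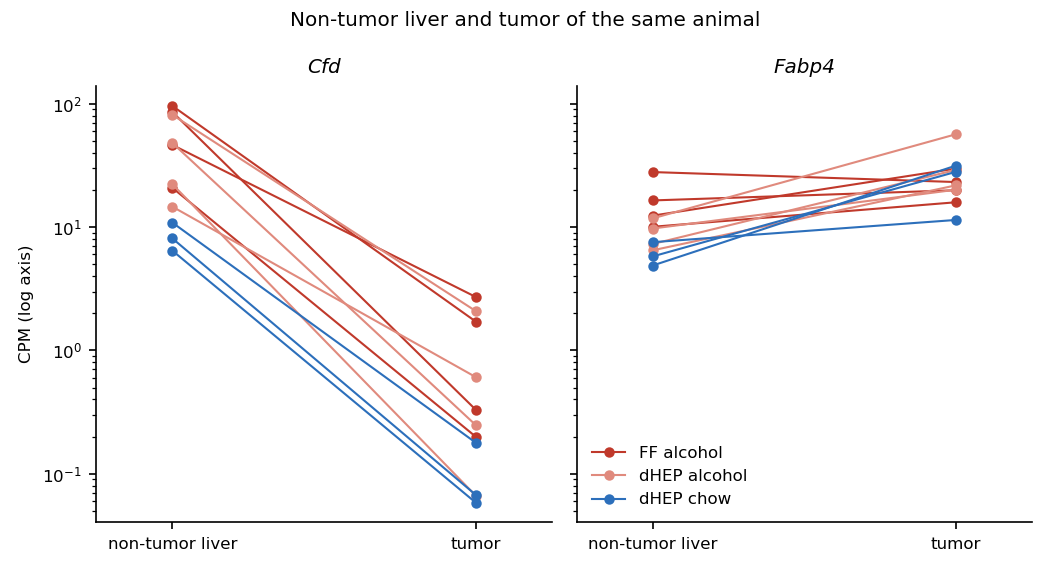
Cfd and Fabp4 in non-tumor liver and tumor of the 11 animals sampled in both tissues, in CPM on a log axis, with 1 line per animal. All 11 Cfd lines fall from non-tumor liver to tumor, and 10 of the 11 Fabp4 lines rise.

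Adipoq and Retn were almost absent. Adipoq, the strictest fat cell marker of the 4, was at 0 in 23 of 28 libraries and in all 14 tumors. Its nonzero values were 0.200 CPM in non-tumor FF-523 (3 reads) and 0.0906, 0.0817, 0.0768 and 0.0942 CPM in non-tumor FF-158, dHEP-549, dHEP-550 and dHEP-165, which are 1 read each. Mouse FF-503, with the most Cfd of all libraries at 96.0 CPM (1262 estimated reads), held none. Retn was at 0 in 17 libraries and reached at most 0.281 CPM (3 reads, non-tumor dHEP-155 on chow). The other Retn values lay between 0.0561 and 0.216 CPM and occurred in both tissues, both diets and both genotypes. Neither gene passed the filter of 1 CPM in at least 3 libraries, so neither was tested, and a share of 0 reads allows up to 3 reads, or 0.168 to 0.313 CPM, counting error only.

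Some other fat cell genes were as low. Plin1, the perilipin that coats the droplet of white fat cells, was at 0 in 27 libraries (highest 0.0719 CPM), leptin (Lep) in 27 (0.0733), the brown fat uncoupling protein Ucp1 in 25 (0.117) and adipogenin (Adig) in 13 (0.461 CPM, 6 reads). Plin1, Lep, Ucp1 and Adig summed with Adipoq and Retn came to 0.0640 to 0.401 CPM in non-tumor liver of alcohol-fed and 0.105 to 0.181 of chow-fed FF mice. In dHEP non-tumor liver the sum was 0.158 to 0.538 on alcohol and 0.0741 to 0.283 on chow, and in tumors 0 to 0.359. The alcohol and chow ranges of these 6 genes overlapped in each genotype, while those of Cfd did not. Of the list of 16 fat cell genes outside the members, 8 stayed below 1 CPM in every library. The rest were higher, with means in FF alcohol non-tumor liver of 4.32 CPM for Adrb3, 17.8 for Lipe, 33 for Mrap and 68.6 for Lpl. Slc2a4 was at 1.285 ± 0.762 CPM there and at 0.0302 ± 0.0523 in FF on chow. Among the rest, Slc2a4 and Cidea separated the FF diets without overlap, as Cfd did, and the others overlapped. In dHEP mice Slc2a4 and Cidea overlapped. Of the 8 tested in non-tumor liver, the diet called 1 in FF and 0 in dHEP mice, with list medians of 0.14 and 0.26 against 0.01 and -0.07 over all genes. The diet called 0.577% (FF) and 0.656% (dHEP) of all genes.

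Set against Fabp4 in the same library, as the difference of log2(CPM + 1), Cfd shifted by diet in FF mice and by tissue in all 4 settings without overlap of the groups, and by genotype in chow non-tumor liver (1.83, exact permutation p = 0.1, adjusted 0.2). In FF non-tumor liver the difference was 1.72 ± 1.02 (SD, n = 4) on alcohol and -1.42 ± 1.02 (n = 3) on chow, without overlap. The shift from chow to alcohol was 3.14 (two-sided exact permutation p = 0.029, the smallest the design allows, and adjusted p = 0.11 over 24 such tests). With 1 library left out this shift was 2.57 to 3.55. In dHEP non-tumor liver it moved by 1.45 (exact permutation p = 0.17, adjusted 0.32). From non-tumor liver to tumor it moved by -5.21 in FF and -6.09 in dHEP mice on alcohol (exact permutation p = 0.029 and adjusted p = 0.11 for each). On chow it moved by -3.13 in FF and -4.78 in dHEP mice (exact permutation p = 0.1, the smallest for 3 against 3, adjusted 0.2). None passed after adjustment, and since Cfd was picked with its values known these p-values are a description. Relative to Adipoq Cfd shifted by 4.49 and 1.89 for diet in FF and dHEP non-tumor liver (exact permutation p = 0.029 and 0.057, adjusted 0.11 and 0.2), which is nearly the change of Cfd itself because Adipoq sits at 0. From non-tumor liver to tumor it shifted by -4.69 in FF and -4.39 in dHEP mice on alcohol (exact permutation p = 0.029, adjusted 0.11 for each), and by -3.04 in dHEP mice on chow (exact permutation p = 0.1, adjusted 0.2). In FF mice on chow the shift was -0.96 with overlapping groups (exact permutation p = 0.4, adjusted 0.53).

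Across animals within a tissue and diet, no Pearson correlation of Cfd with Fabp4 passed after adjustment over 4 sets, and 1 rank correlation, a negative one, did. Pearson's r was 0.11 (exact permutation p = 0.81, adjusted 0.94) and Spearman's rho 0.0 (exact permutation p = 1.0, adjusted 1.0) over the 8 alcohol non-tumor libraries. Over the 6 chow non-tumor libraries r was 0.37 (exact permutation p = 0.46, adjusted 0.92) and rho 0.26 (exact permutation p = 0.66, adjusted 0.88), and r turned to -0.59 without the 2 libraries farthest from the median of Cfd. Over the 8 alcohol tumors r was -0.70 (exact permutation p = 0.031, adjusted 0.12) and rho -0.88 (exact permutation p = 0.0072, adjusted 0.029). Cfd rests on 1 to 37 reads in these tumors, and each set pooled both genotypes. Over the 6 chow tumors r was -0.04 (exact permutation p = 0.94, adjusted 0.94) and rho 0.26 (exact permutation p = 0.66, adjusted 0.88), where Cfd rests on 1 to 5 reads; r was 0.89 without 2 libraries. Without the 2 farthest libraries the alcohol sets gave 0.06 in non-tumor liver and -0.82 in tumors. As deviations from the group means over all 14 tumors, r was -0.45 (permutation p = 0.1, adjusted 0.2) and rho -0.48 (permutation p = 0.084, adjusted 0.17).

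**Figure D3:**
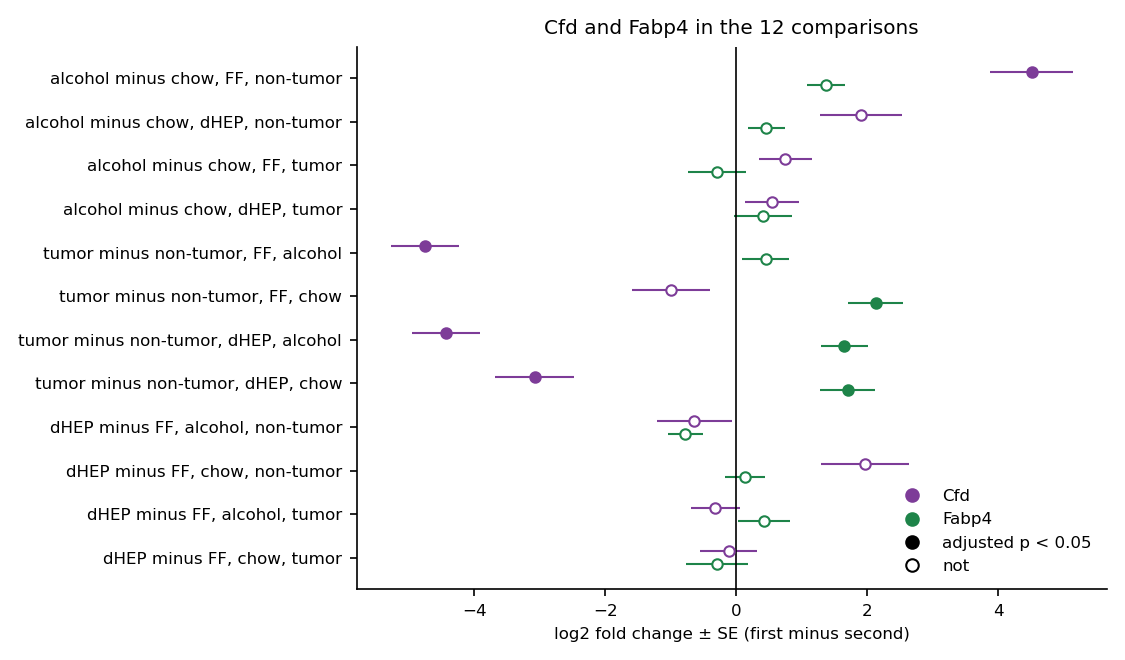
Log2 fold change with standard error of Cfd (purple) and Fabp4 (green) in the 12 comparisons of genotype, diet and tissue; filled points are called at an adjusted p under 0.05. Tumor minus non-tumor liver is negative for Cfd and positive for Fabp4 in all 4 settings, -4.76 against 0.45 in FF on alcohol for example, and Cfd exceeds Fabp4 in both diet comparisons of non-tumor liver.

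Most genes of fat storage that fatty hepatocytes also use had estimates above 0 for diet in non-tumor liver, and 2 were called higher in each genotype. Among all genes 0.253% (FF) and 0.19% (dHEP) were called higher. Of the 15 in the list, 11 were above 0 for alcohol minus chow in FF non-tumor liver, with a list median of 0.90 against 0.01 over all genes, and 9 in dHEP (median 0.51 against -0.07). Cidec, which fuses lipid droplets in fat cells and fatty liver, rose from 4.82 ± 1.60 (n = 3) to 66.8 ± 32.4 CPM (n = 4) in FF mice, 13.9-fold (log2 3.45 ± 0.42, limma adjusted p = 0.0098). This call held with each library left out in turn, but not in a fit of the 2 groups alone. In dHEP mice its groups did not overlap either, but the estimate of 1.67 ± 0.42 missed the threshold (limma adjusted p = 0.087). Plin4, a perilipin of small lipid droplets, rose in both genotypes, from 55.2 ± 24.5 to 161 ± 62.0 CPM in FF (limma adjusted p = 0.037) and from 53.8 ± 12.6 to 186 ± 23.7 CPM in dHEP mice (limma adjusted p = 0.023). Plin4 lost its call without FF-523, FF-581, FF-158 or FF-159 in FF mice (adjusted p up to 0.13) and without any of 5 libraries in dHEP mice (up to 0.088).

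Fitm2, which helps bud lipid droplets from the endoplasmic reticulum, rose in dHEP mice (0.88 ± 0.15, limma adjusted p = 0.023) and was at 0.66 ± 0.15 in FF mice (0.058). The dHEP call was lost without any of 5 libraries, with adjusted p up to 0.13. Cidea, the CIDE protein of brown fat that fatty liver also makes, was the 1 gene of the fat cell list called by diet. It rose from 0.655 ± 0.50 to 20.1 ± 14.5 CPM in FF mice (3.32 ± 0.66, limma adjusted p = 0.042), and was at 0.98 ± 0.66 in dHEP mice. The Cidea call was kept in only 1 of the 7 fits that left out a library, that without FF-595. Of 4 tested fatty acid binding protein genes besides Fabp4, Fabp2, the intestinal form, rose in FF mice from 42.2 ± 2.00 to 100.6 ± 26.5 CPM (1.20 ± 0.20, limma adjusted p = 0.024), a call lost without FF-523, FF-157, FF-158 or FF-159, and 0 of the 4 were called in dHEP mice.

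**Figure D4:**
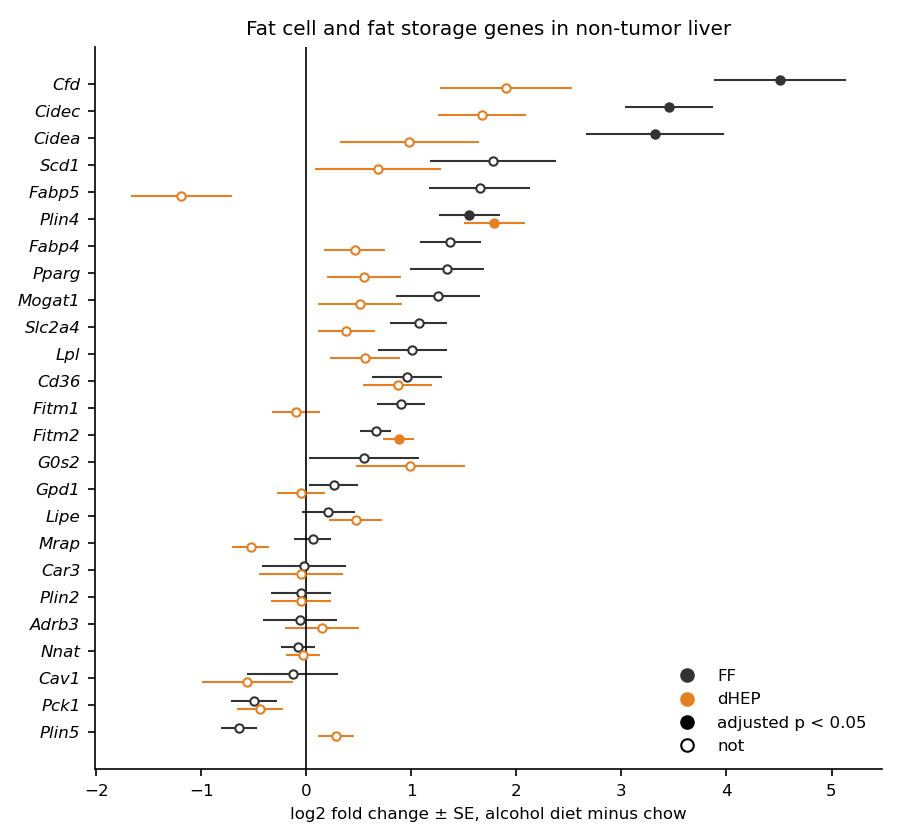
Log2 fold change with standard error, alcohol minus chow in non-tumor liver, of fat cell and fat storage genes in FF (black) and dHEP (orange) mice; filled points are called at an adjusted p under 0.05. Cfd (4.51), Cidec (3.45) and Cidea (3.32) have the largest FF values among the genes drawn, and Plin4 is called in both genotypes.

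In tumors several of these storage genes were lower, as Cfd was, while others were not. Called lower or higher in tumor against non-tumor liver were 7 and 1 of the 15 in FF on alcohol (list median -1.02 against 0.05 over all genes), 6 and 1 in FF on chow (-0.68 against 0.16), 6 and 2 in dHEP on alcohol (-0.69 against 0.09), and 6 and 1 in dHEP on chow (-0.55 against 0.14). Over all genes, 10.6%, 9.55%, 7.54% and 10.7% were called lower and 13.9%, 21.2%, 12.9% and 17.2% higher in these settings. Fitm1, the muscle and fatty liver relative of Fitm2, fell in all 4 by 3.14 ± 0.37, 2.84 ± 0.43, 2.46 ± 0.37 and 3.8 ± 0.43 in that order (limma adjusted p = 4.2e-06, 6.7e-05, 9.6e-05 and 1.8e-06). Plin4 fell in all 4 by 2.82 ± 0.43, 2.12 ± 0.50, 1.89 ± 0.43 and 2.51 ± 0.50 (limma adjusted p = 5.2e-05, 0.0027, 0.0032 and 0.0007). Each of these calls held in every fit that left out a library.

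Cidec, the storage gene with the largest diet estimate in FF non-tumor liver (in dHEP mice that of Plin4 was larger), gave no call between tissues. FF alcohol tumors held 42.4 ± 13.2 CPM of Cidec against 66.8 ± 32.4 in non-tumor liver, and the 4 estimates of -0.56 ± 0.61, 1.35 ± 0.70, -0.65 ± 0.61 and -0.17 ± 0.70 were not called. Cidea fell on alcohol (-2.90 ± 0.53 in FF, limma adjusted p = 0.00034, and -2.25 ± 0.53 in dHEP, 0.0043) and was not called on chow (0.62 ± 0.61 and -1.38 ± 0.61). Fabp5, the epidermal fatty acid carrier, rose with Fabp4 in FF on chow (4.12 ± 0.67, limma adjusted p = 0.00013), dHEP on alcohol (2.47 ± 0.58, 0.0042) and dHEP on chow (2.93 ± 0.67, 0.0024), and in FF on alcohol was at 1.52 (0.06), the setting in which Fabp4 was not called either.

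The genes whose pattern over the 28 libraries was most like that of Cfd, among 12643 other genes that averaged at least 1 CPM, were Mogat1 (Pearson r 0.92), Clstn3 (0.91), Tmem28 (0.90), Tpm2 (0.89), Aatk (0.89), Adam11 (0.89), Sema5b (0.88) and Cidea (0.87). The points share animals, tissue and diet groups, so these r are descriptions. Of deviations from the 8 group means the same genes gave 0.47 to 0.74, with Mogat1 and Tmem28 again among the top 8. Mogat1, a monoacylglycerol acyltransferase, was at 3.86 ± 2.06 CPM in non-tumor liver of alcohol-fed and 0.885 ± 0.296 of chow-fed FF mice, and Clstn3, a calsyntenin, at 39.3 ± 13.5 and 12.2 ± 1.10. Further down were Plin4 (r 0.86, rank 11), Fitm1 (0.85, rank 13) and Fitm2 (0.84, rank 20). Cidec was at rank 1652 over all 28 libraries (r 0.49) and at rank 5 over the 14 non-tumor libraries (0.89). Fabp4 was at rank 9211 over all 28 (-0.43) and rank 311 over the 14 (0.64). Adipoq has no such list, because 23 of its 28 values are 0.

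**Figure D5:**
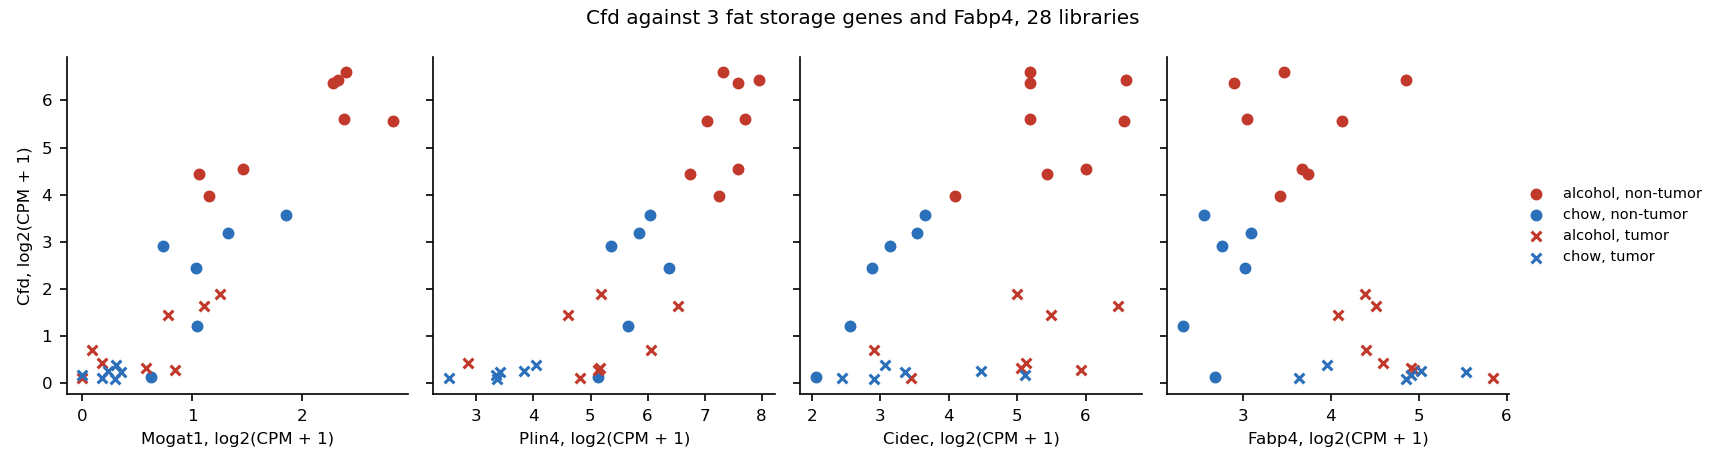
Cfd against Mogat1, Plin4, Cidec and Fabp4 in the 28 libraries, on the log2(CPM + 1) scale; dots are non-tumor liver and crosses tumors, red alcohol and blue chow. Pearson's r over all points is 0.92 for Mogat1, 0.86 for Plin4, 0.49 for Cidec and -0.43 for Fabp4, the tumors lying at the low end of Cfd in each panel.

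Components of the alternative complement pathway, in which adipsin acts, were counted beside Cfd. Of the 14 listed genes in the table, 0 were called between diets in non-tumor liver of either genotype. Only 0.577% (FF) and 0.656% (dHEP) of all genes were called there, so 0 of 14 is near the background. Between tumor and non-tumor liver, 4 were called lower and 1 higher in FF on alcohol, 4 and 1 in FF on chow, 3 and 2 in dHEP on alcohol, and 4 and 1 in dHEP on chow, where 24.6%, 30.8%, 20.4% and 27.9% of all genes were called in either direction. Masp1, a protease of the lectin pathway, fell in all 4 by 1.01, 1.22, 0.81 and 1.0 in the same order, the last call being lost with the animal as a block. Cfi, the protease that inactivates C3b, rose in FF on alcohol (0.87 ± 0.14, limma adjusted p = 0.00013) and in the other 3 settings by 0.63, 0.54 and 0.75, of which the FF chow and dHEP alcohol calls were lost under median-of-ratios scaling and the dHEP calls with the animal as a block.

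Receptors of adiponectin and resistin gave 0 of 6 calls by diet in non-tumor liver, where 0.577% (FF) and 0.656% (dHEP) of all genes were called. Adipor2, the main adiponectin receptor of liver, was lower in tumors by 0.96 ± 0.21 in FF on alcohol (limma adjusted p = 0.0019), 0.95 ± 0.25 in FF on chow (0.006), 0.68 ± 0.21 in dHEP on alcohol (0.026) and 1.01 ± 0.25 in dHEP on chow (0.0039), as differences on the log2 scale. The FF chow call was lost without tumor FF-167, and the dHEP alcohol call with the animal as a block and in 5 of 8 fits that left out a library. Adipor1, the other main adiponectin receptor, had the opposite sign, higher in tumors by 0.28 ± 0.08 in FF on alcohol (limma adjusted p = 0.012), 0.32 ± 0.09 in FF on chow (0.011) and 0.25 ± 0.08 in dHEP on alcohol (0.033). All 3 calls were lost under median-of-ratios scaling. Appl1, an adaptor that binds both receptors, was higher in the same 3 settings by 0.56 ± 0.20, 0.65 ± 0.23 and 0.70 ± 0.20 (limma adjusted p = 0.037, 0.033 and 0.014), and the FF calls were lost in 5 of 8 and 4 of 6 fits that left out a library. In all, 2, 4, 2 and 1 of the 6 genes were called higher and 1 lower in each setting. Of all genes, 13.9%, 21.2%, 12.9% and 17.2% were called higher and 10.6%, 9.55%, 7.54% and 10.7% lower, so that 1 of 6 is near the background. Cap1, proposed as the receptor of human resistin, rose in chow tumors by 0.61 in FF, a call lost without FF-157, FF-159 or FF-168, and by 0.81 in dHEP mice. The 3 resistin-like genes Retnla, Retnlb and Retnlg all fell below the filter in non-tumor liver, so none was tested there.

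Markers of the other cells that make Fabp4 were counted beside it. Of 12 tested endothelial genes, 2 were called higher and 0 lower in tumors in FF on alcohol, 5 and 0 in FF on chow, 4 and 0 in dHEP on alcohol, and 2 and 1 in dHEP on chow, where 13.9%, 21.2%, 12.9% and 17.2% of all genes were called higher, so that 2 of 12 is near the background. The median summed level of the 14 listed went from 392.3 CPM in non-tumor liver to 492 in tumors in FF on alcohol, from 490 to 649 in FF on chow and from 429 to 532 in dHEP on alcohol, but from 529 to 420 in dHEP on chow, where Fabp4 was called higher. Cd34, found on capillary endothelium, rose in all 4 by 1.58 ± 0.34, 2.98 ± 0.40, 2.54 ± 0.34 and 2.17 ± 0.40 (limma adjusted p = 0.0016, 1.7e-05, 3.4e-05 and 0.00035). Of 12 macrophage genes, 0 were called higher and 3 lower in FF alcohol tumors, 5 and 0 in FF chow, 2 and 2 in dHEP alcohol and 2 and 4 in dHEP chow tumors, beside 13.9%, 21.2%, 12.9% and 17.2% of all genes called higher and 10.6%, 9.55%, 7.54% and 10.7% called lower. By diet all 12 were above 0 in FF non-tumor liver (median 0.82 against 0.01 over all genes), with a summed level of 494 to 773 CPM on alcohol and 247 to 532 on chow, but only Trem2, a receptor of lipid-associated macrophages, was called (1.36 ± 0.26, limma adjusted p = 0.041). That call was lost in 6 of 7 fits leaving out a library. Their part in the Fabp4 values was not tested.

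Lists for tissues that could be taken along at dissection gave no call by diet in non-tumor liver. Only 0.577% (FF) and 0.656% (dHEP) of all genes were called there, so no call in short lists is near the background. Mesothelial genes (6) summed to 2.07 to 7.83 CPM there and skeletal muscle genes (7) to 0.199 to 0.906, all 7 below 1 CPM in every library. Pancreatic genes (8) summed to 6.79 to 12.9 CPM in FF and 10.6 to 11.9 in dHEP mice on alcohol, against 9.90 to 24.4 and 16.9 to 21.4 with chow feeding, and 5 of them were below 1 CPM everywhere. Neutrophil genes (8), relevant because Cfd lies beside the neutrophil protease gene Elane, summed to 1.24 to 15.2 CPM. Elane ends 2637 bases from Cfd and Med16 2052 bases on its other side. Of the 6 neighbouring genes 5 were tested, 0 were called by diet, and Ptbp1, a splicing regulator, was the 1 called in tumors, by 0.43, 0.44, 0.54 and 0.49 in the order above, opposite in sign to Cfd. Of 9 hepatocyte genes 0 were called by diet in non-tumor liver of either genotype, and 3, 2, 3 and 1 were called higher and 2, 2, 1 and 3 lower in tumors, where 24.6%, 30.8%, 20.4% and 27.9% of all genes were called in either direction. Of 6 male-biased liver genes 4, 3, 5 and 4 were called lower in tumors (10.6%, 9.55%, 7.54% and 10.7% of all genes) and 0 by diet, and of 5 female-biased ones at most 1 was called in any tissue comparison and 0 by diet.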

How the data were processed

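Per the submitters' processing notes the authors used STAR 2.5.1a and RSEM 1.3.0 with GRCm38, and deposited gene-level CPM (counts per 1000000); every column adds up to 1000000, and further steps are not given in the sources used here. The labels name polyA RNA as molecule and a stranded total RNA kit, which were not reconciled. Symbols came from GENCODE M21 for 21653 of 22187 identifiers, and the unnamed rest made up no more than 0.166% of any library's CPM.

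Between 85.1% and 87.3% of values up to 20 reads were whole to within 0.1 read by library, too few for a count model. Tests used limma 3.58.1 in R 4.3.3, moderated with a trend over expression, on log2(CPM + 1). Genes had to reach 1 CPM in 3 or more of the libraries fitted: 14 libraries of 1 tissue for genotype and diet (12651 genes in non-tumor liver, 13205 in tumors), all 28 for tissue (13503). Calls needed an adjusted p under 0.05 (Benjamini-Hochberg, all tested genes). The scripts were tested on simulated data. Permutation and correlation tests were coded directly in Python 3.11.15, with ranks from scipy 1.17.1. No duplicate deposit was seen: the most alike libraries (r 0.9954) belonged to different groups. Fold changes are ratios of mean CPM.

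The members and all gene lists (fat cell, fat storage, complement, receptor, fatty acid binding protein and resistin families, cell types and neighbouring genes) were chosen with earlier results of these data known. From each list at most 4 called genes per comparison were named, with the genes most like Cfd by r; the corresponding list for Adipoq was not made. Genes set beside these for contrast were chosen after their values were seen. For C5 no row matched, and it was not analysed here; some other list members are not reported here.

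Tumor and non-tumor libraries with the same number are from the same animal per the labels, and their deviations from group means correlated at -0.11 to 0.36. Alternatives were pseudocount 0.5, no filter, a minimum mean of 5 CPM, scaling by median of ratios, fits of the 2 compared groups, the animal as a block, and each library left out. Leaving out FF-158 with FF-168, and FF-523 with FF-581, was chosen after seeing the data.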

Additional observations from a re-analysis of the deposited data

Results flagged for a closer look

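In 6 of 48 groups of 4 libraries (12 genes, the members and the 8 most like Cfd), 1 library lay far from the other 3; chance alone sets a library apart in about 1 in 20 groups. Adipoq was 0.2002 CPM in non-tumor FF-523 and at 0 in the 3 other FF alcohol livers. Retn was 0.06404 CPM in non-tumor FF-595, 0.06613 in tumor FF-581 and 0.2156 in tumor dHEP-520, with the others of each group at 0. These 4 values stand for 1 to 3 reads. Where the other libraries are at 0, 1 read sets a library apart, so the rate of 1 in 20 does not cover them. Adam11 was 84.4 CPM in non-tumor FF-503, the library with the most Cfd, against 23.4 to 32.1 in the other 3. Sema5b was 3.298 CPM in tumor FF-523, the FF tumor with the most Cfd, against 0.529 to 0.866. Both genes were chosen for their likeness to Cfd in these same libraries, so a match with its highest libraries is partly built in.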

How the results depend on the processing

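Cfd kept its direction in all 12 comparisons under every alternative in which it passed the filter. In tumors it missed a minimum mean of 5 CPM and dropped out of some fits with 1 library left out, leaving 5 of 7 for diet in FF, 6 of 7 in dHEP and 5 of 8 for genotype on alcohol. It also dropped out of the fit of 2 groups in 4 comparisons, the other 3 of tumors and that of tissue in FF on chow. The FF diet difference in non-tumor liver was not called in the fit of its 2 groups (4.51, limma adjusted p = 0.14), without FF-523 and FF-581 (4.27, 0.087) or without FF-159 (4.48, 0.067), and ranged from 3.95 to 5.10 with 1 library left out. With 1 library left out Cfd ranged from 1.49 to 2.29 for diet in dHEP non-tumor liver, and for tumor minus non-tumor liver from -5.20 to -4.48 (FF alcohol), -1.56 to -0.41 (FF chow), -4.83 to -4.03 (dHEP alcohol) and -3.24 to -2.90 (dHEP chow). Fabp4 changed sign only where it was not called. For dHEP minus FF it was -0.05 without FF-159 and -0.01 without dHEP-165 in chow non-tumor liver (range -0.05 to 0.30), and 0.07 without FF-168 (alone or with FF-158) and 0.14 without dHEP-165 in chow tumors (range -0.72 to 0.14). For diet it was 0.06 without FF-168 (alone or with FF-158) in FF tumors (range -0.73 to 0.06) and -0.03 without dHEP-165 in dHEP tumors (range -0.03 to 0.67). In FF non-tumor liver its diet estimate was called with a minimum mean of 5 CPM (1.37), with scaling by median of ratios (1.36), without FF-503 (1.57) and without FF-595 (1.47). The correlation of Cfd with Fabp4 became -0.59 (chow non-tumor liver) and 0.89 (chow tumors) without the 2 farthest libraries. The causes were not tested.

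With the animal as a replicate block, Cfd stayed called at -4.76 ± 0.36, -4.44 ± 0.32 and -3.08 ± 0.26 (FF and dHEP on alcohol, then dHEP on chow) and Fabp4 was 0.45 ± 0.22 (not called), 1.65 ± 0.21 and 1.70 ± 0.38. The block raised the number of called genes from 3315 to 4476 in FF on alcohol and lowered it from 2754 to 1601 (dHEP alcohol) and from 3769 to 2149 (dHEP chow). No paired analysis was possible for FF on chow because its animal numbers differ between tissues. The 73 genes called by diet in FF non-tumor liver became 31 with no filter, 150 with median-of-ratios scaling, 1 in the fit of 2 groups, 9 without FF-523 and FF-581, 15 without FF-158 and 3 to 216 with 1 library left out. The 83 in dHEP became 197 in the fit of 2 groups and 2 to 42 with 1 library left out. The 1 gene called by diet in dHEP tumors became 0 with no filter or in the fit of 2 groups, and 0 to 53 with 1 library left out. Genotype calls on chow numbered at most 1 in non-tumor liver and 4 in tumors with 1 library left out. For tissue, the fit of 2 groups called 1764 (dHEP alcohol) and 1925 (dHEP chow), and 2372 were called in dHEP on chow without tumor dHEP-155. With a pseudocount of 0.5 the dHEP chow difference between tissues moved to -5.65 for Cfd over Fabp4 and -3.79 for Cfd over Adipoq. Depth limits Cfd in chow tumors, Adipoq and Retn to a few reads.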
